A study of Mus musculus with 2 samples.

Results

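Folr2-positive macrophages of the arthritic mouse temporomandibular joint (TMJ) held the resident-type markers Mrc1, Ccl8 and Pltp at higher summed levels than the macrophages without Folr2 in both libraries. They were chosen by transcript counts in single droplets. A unique molecular identifier (UMI) stands for 1 captured RNA molecule. A droplet was a member if its barcode held at least 500 genes and under 10% mitochondrial UMIs, at least 10 UMIs of C1qa, C1qb and C1qc together, at least 1 UMI of Csf1r, at least 2 UMIs of Folr2 and under 10 UMIs of Mmp12. The rule found 32 droplets among 4352 kept barcodes of the wild-type (WT) library and 45 among 5757 of the Prox1 mutant library, 77 of 10109 in all.

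The study asked what a lymphatic deficiency changes in TMJ arthritis, and profiled dissociated joints by droplet-based single-cell RNA sequencing. Both groups were C57BL/6 mice labelled 8 to 10 weeks old, and per the study female, whose joints had been injected with complete Freund's adjuvant (CFA), an oil with killed mycobacteria that inflames the joint. The WT group carried no mutant allele, and the Prox1 mutant group was, per the study's methods, heterozygous (Prox1+/-). The allele is in every cell of the mouse and not limited to lymphatic vessels, every joint here had received CFA, and how many mice were pooled is not given in the sources used here. Each group was 1 library, so no difference between them has a replicate check. Every interval below is a 95% interval that covers counting error only, and no test between genotypes was made.

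Prox1, the transcription factor that maintains lymphatic endothelial identity and the targeted gene, was nearly absent from the population. It had 1 UMI over the 32 WT members and 0 UMIs over the 45 mutant members, where the limit that a count of 0 allows, taken as 3 counts, is 2.15 counts per 1000000 UMIs (CPM). In all other kept barcodes Prox1 stood at 11.8 CPM (WT) and 5.95 CPM (mutant). In endothelial droplets, with UMIs of Cdh5, Pecam1 and Flt1, it stood at 8.55 CPM (6.66 to 10.8) for WT and 14.3 CPM (11.3 to 17.8) for mutant droplets. The deposited counts therefore gave no single direction for the targeted gene.

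Tissue-resident macrophages clear dying cells, debris and matrix fragments, and in joints they line the synovium or sit beside vessels in its deeper layer. Folr2 encodes folate receptor beta and Mrc1 the mannose receptor CD206, both endocytic receptors that mark many resident macrophages. Perivascular resident macrophages often carry Lyve1 and little MHC class II, whereas macrophages newly made from blood monocytes pass through a state with Ccr2 and Ly6c2.

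The members of the mutant library held more UMIs a droplet. The WT library held 5709 barcodes with 53517206 UMIs and the mutant library 7846 barcodes with 62446987 UMIs. Summed over the members, there were 551426 UMIs (WT) and 1393645 UMIs (mutant). A WT member had a median of 14863 UMIs, with a lowest value of 5063 and a highest of 58012. A mutant member had a median of 26043 UMIs, between 7210 and 107653. The order was the reverse over all kept barcodes, with a median of 6997 UMIs (WT) and 4848 UMIs (mutant), while droplets with C1q and Csf1r, under 10 Mmp12 UMIs and no Folr2 (Folr2-zero macrophages) had medians of 15079 and 15300.5 UMIs. A fixed cut of 2 Folr2 UMIs stands for a lower Folr2 level in droplets with more UMIs, so the main ratios between genotypes are also given below in narrower sets of members. The libraries shared 10 barcodes, and 1 of these was a member.

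The values that chose the members are a description. The summed C1q UMIs had a median of 134 in WT members (24 to 363) and 209 in mutant members (26 to 953). Csf1r, the receptor for the macrophage growth factor CSF1, had a median of 8 UMIs in WT (2 to 25) and 11 in the mutant (1 to 41). Folr2 had a median of 4 UMIs in WT (2 to 28) and 5 in the mutant (2 to 35). Mmp12 was at 0 in 29 of 32 WT members and 34 of 45 mutant members, with highest values of 2 and 9 UMIs. Just inside the Folr2 cut, at exactly 2 UMIs, were 5 WT and 11 mutant droplets. Just outside, at 1 UMI, were 14 WT and 43 mutant droplets, and the Mmp12 limit left out 2 and 3.

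Mrc1, which the rule did not use, stood higher with each step of Folr2 UMIs in both libraries. In WT its summed level was 88.6 CPM in C1q and Csf1r droplets without Folr2, 304 CPM at 1 Folr2 UMI, 497 CPM at 2, 1497 CPM at 3 to 5 and 3062 CPM at 6 or more. In the mutant library Mrc1 stood at 141, 220, 391, 727 and 906 CPM over the same steps. Between the droplets just outside the cut and those just inside it, the Mrc1 intervals overlapped in WT (237 to 383 against 352 to 683 CPM) and did not overlap in the mutant (191 to 253 against 334 to 456 CPM). Ccl8 and Pltp did not follow the steps in this way. Ccl8 stood at 103, 445, 1558, 2259 and 1954 CPM in WT and at 421, 954, 334, 1934 and 1606 CPM in the mutant, where the droplets at 2 Folr2 UMIs lay below those just outside the cut. Pltp stood at 162, 252, 1322, 627 and 1048 CPM in WT and at 254, 324, 370, 676 and 621 CPM in the mutant.

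The other markers of the population comprised a chemokine, Ccl8, a bridging ligand for the phagocytic receptors Mertk and Axl, Gas6, and the phospholipid transfer protein Pltp. The promoters of Mrc1, Ccl8 and Pltp are shown. These genes stood higher in the members than in the macrophages without Folr2, as did Gas6, whose promoter is not printed. Each sequence is the 250 bases before a RefSeq transcription start in GRCm38.p6, 5′ to 3′ on the strand of the gene, from chr2:14229164-14229413 (plus strand) for Mrc1, chr11:82114935-82115184 (plus strand) for Ccl8 and chr2:164857709-164857958 (minus strand) for Pltp. Capitals mark matches on either strand of GAGGAA, the core bound by the myeloid factor PU.1, or of TGCTGA, a half-site of MAF factors.
Mrc1: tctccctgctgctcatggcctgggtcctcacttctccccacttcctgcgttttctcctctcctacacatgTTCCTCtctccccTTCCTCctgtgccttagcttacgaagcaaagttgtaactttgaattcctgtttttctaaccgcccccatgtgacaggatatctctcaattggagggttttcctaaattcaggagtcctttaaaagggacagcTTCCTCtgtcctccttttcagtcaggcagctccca
Ccl8: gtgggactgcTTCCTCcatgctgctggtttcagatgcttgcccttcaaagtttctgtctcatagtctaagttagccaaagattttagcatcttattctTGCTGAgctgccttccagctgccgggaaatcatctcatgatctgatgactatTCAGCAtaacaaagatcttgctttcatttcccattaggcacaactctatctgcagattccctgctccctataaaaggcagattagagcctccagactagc
Pltp: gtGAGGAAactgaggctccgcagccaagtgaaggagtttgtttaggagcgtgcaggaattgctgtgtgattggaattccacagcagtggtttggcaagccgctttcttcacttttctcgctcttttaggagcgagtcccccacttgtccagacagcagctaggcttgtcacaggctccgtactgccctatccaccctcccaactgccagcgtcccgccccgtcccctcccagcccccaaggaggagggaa
The Mrc1 window held 3 matches of GAGGAA and 0 of TGCTGA, the Ccl8 window 1 and 2, and the Pltp window 1 and 0. Folr2 has 2 annotated starts, each with 0 matches of GAGGAA and 1 of TGCTGA, and the Gas6 window held neither. The windows printed are thus the ones among these markers with a GAGGAA match. Over all 32851 promoters of this length, 23.3% held GAGGAA and 16.1% held TGCTGA, so each motif is common and a match is no more than a description of the letters.

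Mrc1 stood far higher in the members than in the other cell groups compared. Its summed level was 1973 CPM in WT members (1858 to 2094) and 697 CPM in mutant members (654 to 742). In the Mmp12-high macrophages, droplets with at least 10 Mmp12 UMIs and a Csf1r UMI, Mrc1 stood at 8.71 CPM in WT (222 droplets) and 16.1 CPM in the mutant (174 droplets). In the C1q and Csf1r droplets with under 10 Mmp12 UMIs and no Folr2, it stood at 88.6 CPM (223 droplets) and 141 CPM (260 droplets). Neutrophil droplets held 38.9 and 10.7 CPM of Mrc1 and B cell droplets 0 and 10.9 CPM.

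Ccl8, an attractant of monocytes and lymphocytes, stood at 2042 CPM in WT members and 1327 CPM in mutant members, against 17.9 and 34.4 CPM in the Mmp12-high macrophages. In the Folr2-zero macrophages Ccl8 was at 103 CPM (WT) and 421 CPM (mutant). Pltp stood at 889 CPM in WT members and 563 CPM in mutant members, against 162 and 254 CPM in the Folr2-zero macrophages. Gas6 stood at 212 and 88.3 CPM in the members, against 9.59 and 19.4 CPM in the Folr2-zero macrophages.

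Gas6 and Pltp were not limited to macrophages. Fibroblast droplets, with Pdgfra and at least 10 Dcn UMIs, held Gas6 at 303 CPM (WT) and 303 CPM (mutant), above the members. Endothelial droplets held Gas6 at 131 and 116 CPM and Pltp at 98.9 and 60.8 CPM. Folr2, Mrc1 and Ccl8 stood at 0.49, 6.47 and 3.66 CPM in WT endothelium, and at 1.09, 12.7 and 17.6 CPM in mutant endothelium.

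**Figure D1:**
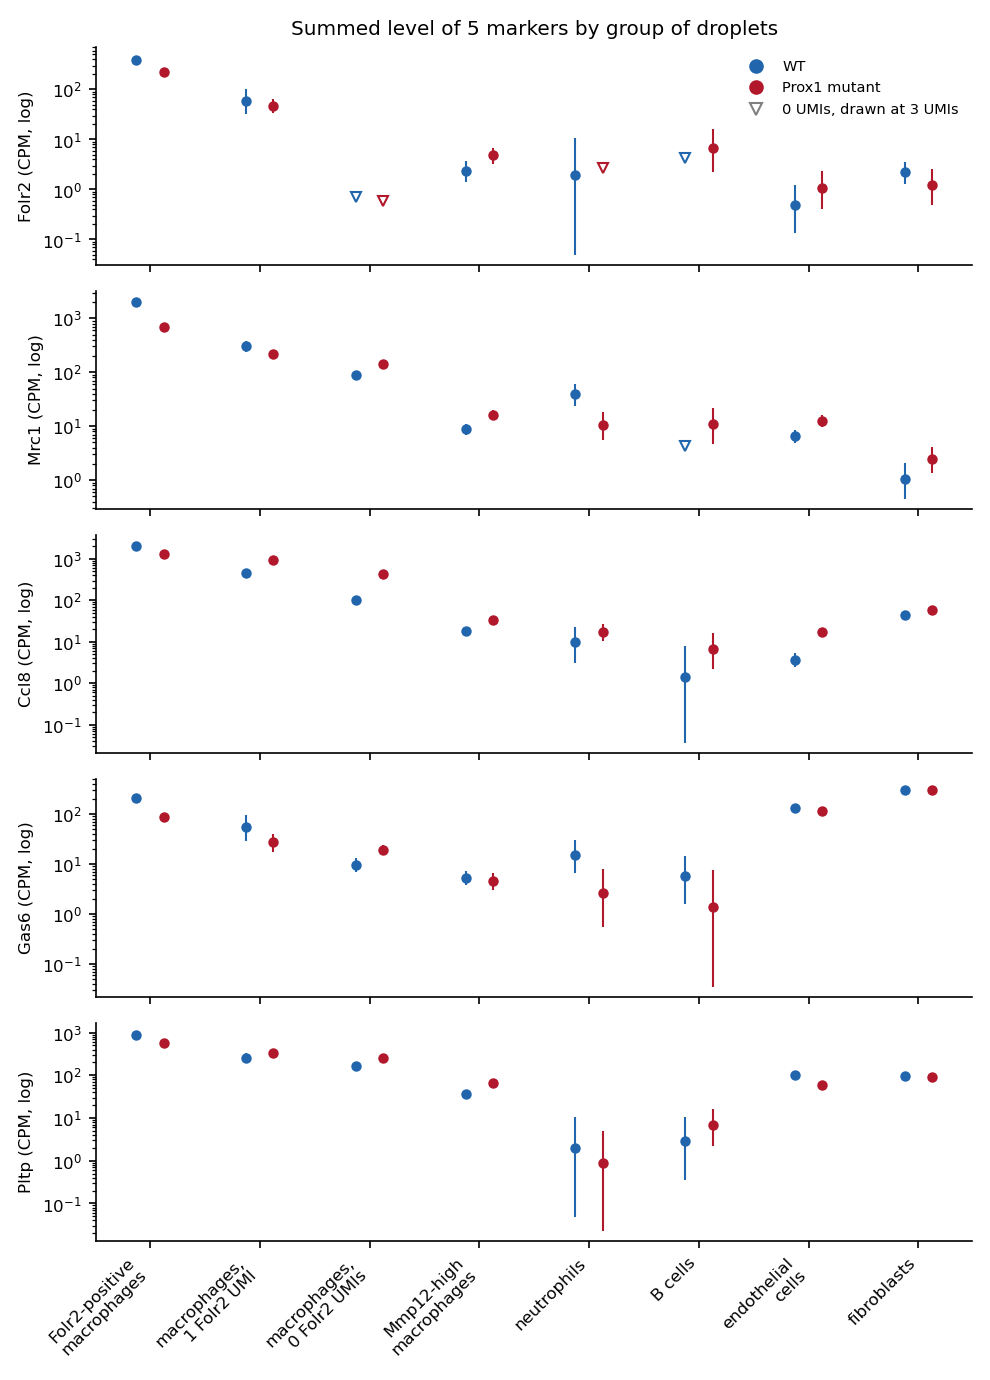
Summed level (CPM, log axis) of Folr2, Mrc1, Ccl8, Gas6 and Pltp in 8 groups of droplets, with WT and Prox1 mutant libraries as separate points, exact Poisson 95% bars for counting error and an open triangle, drawn at 3 UMIs, where a group had 0 UMIs. Mrc1 stands at 1973 and 697 CPM in the members and at 8.71 and 16.1 CPM in the Mmp12-high macrophages, whereas Gas6 is higher in fibroblasts, at 303 CPM in both libraries, than in the members.

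Not every member carried every marker. At least 1 UMI of Mrc1 was found in 28 of 32 WT members and 38 of 45 mutant members, of Ccl8 in 24 and 39, of Gas6 in 25 and 26, and of Pltp in 31 and 41. All 5 markers were present in 19 WT and 24 mutant members. When each droplet was thinned to 5000 UMIs, so that depth was equal, Mrc1 was found in 84.4% of WT members (67.2 to 94.7%) and 57.8% of mutant members (42.1 to 72.3%), against 1.40% and 1.27% of endothelial droplets at the same depth. Pltp was found in 87.5% and 86.7%, Ccl8 in 68.8% and 73.3%, and Gas6 in 16 of 32 and 12 of 45. In endothelial droplets thinned alike, the shares were 32.3% and 24.9% for Pltp, 1.80% and 7.89% for Ccl8, and 44.7% and 44.0% for Gas6.

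Single droplets varied widely. Per droplet, Mrc1 had a lowest value of 0, a median of 1266 and a highest of 9917 CPM in WT, and 0, 347 and 4065 CPM in the mutant. The ranges overlapped, although 26 of 32 WT droplets lay above the mutant median and 14 of 45 mutant droplets above the WT median. Ccl8 had values of 0, 706 and 9145 CPM in WT and 0, 569 and 8215 CPM in the mutant, with 18 WT droplets above the mutant median and 22 mutant droplets above the WT median. These ranges overlapped almost wholly. Pltp ran from 0 through a median of 854 to 3550.5 CPM in WT, and from 0 through 594 to 2148 CPM in the mutant. Gas6 ran from 0 through 181 to 925 CPM in WT, and from 0 through 20.8 to 633 CPM in the mutant, with 25 of 32 WT droplets above the mutant median. For both genes the ranges of the genotypes overlapped.

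**Figure D2:**
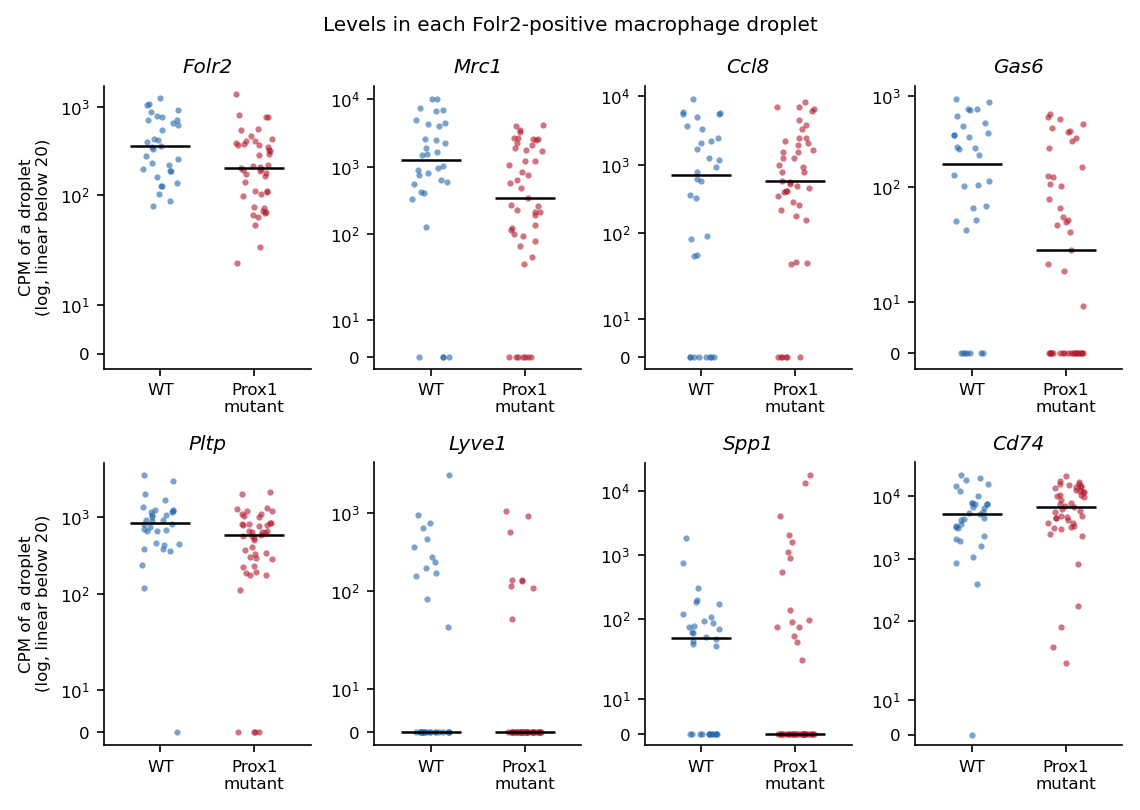
Level per droplet (CPM, linear below 20 and logarithmic above) of 8 genes in the 32 WT and 45 Prox1 mutant members, 1 point a droplet, with the black line at the median. The WT and mutant points overlap for all 8 genes, and Mrc1 has medians of 1266 and 347 CPM.

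Within a library, Mrc1 and Gas6 varied together. Over droplets, Spearman's rho between their CPM values was 0.70 in WT (32 droplets) and 0.79 in the mutant (45 droplets), and between Mrc1 and Ccl8 it was 0.54 and 0.44. Mrc1 and Pltp gave -0.23 and 0.16. Depth was shared by all of these values: rho between total UMIs and the Folr2 CPM was -0.47 and -0.48, and between total UMIs and the Mrc1 CPM -0.36 and -0.49. These coefficients describe the droplets of 1 library each.

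**Figure D3:**
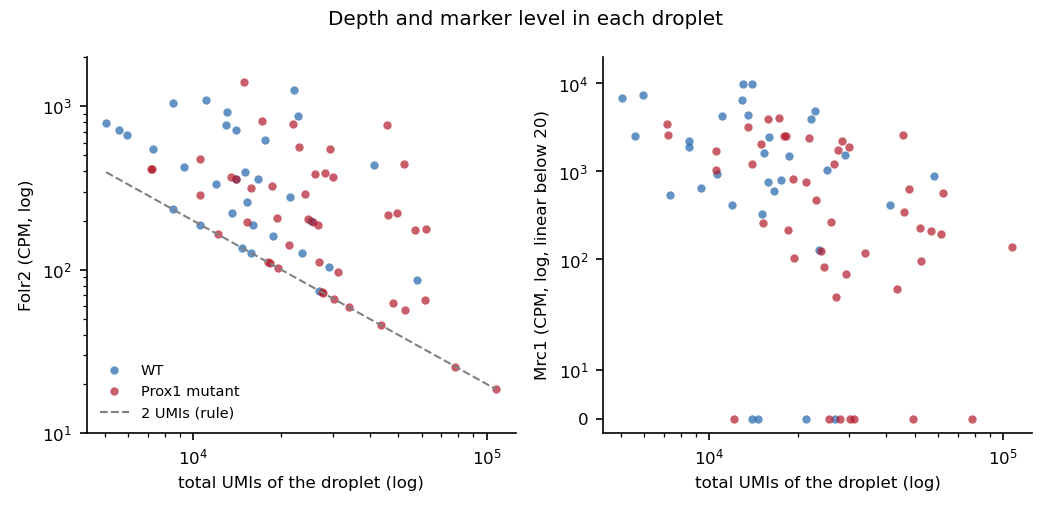
Folr2 and Mrc1 levels (CPM) of each member against its total UMIs, WT and Prox1 mutant droplets in different colours, with the dashed line at the level that 2 UMIs give. The deepest droplet, at 107653 UMIs, is a mutant one.

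The population had a transcriptome apart from the Mmp12-high macrophages beyond its markers. Since the members were chosen on Folr2 and Mmp12, this contrast describes them. Of 8875 genes with enough UMIs, 614 (6.92%) stood at least 2-fold higher and 402 (4.53%) at least 2-fold lower in the members in both libraries. Of 25 resident identity genes, 20 could be compared, 16 stood higher and 1, the C-type lectin Clec4n, stood lower, at 223 CPM (WT) and 88.3 CPM (mutant) against 1471 and 698 CPM. Of the 16, Folr2 was used by the rule. Genes such as Lyve1, Cd163, Vsig4, Cbr2, Clec10a and Gas6 reached the minimum of 100 UMIs through the members, so the count is no support for a direction. The 20 genes with the highest ratio included the receptors Lyve1, Cd163, Mrc1, Clec10a and Folr2, the complement receptor Vsig4, the purinergic receptor P2ry12, and the chemokines Cxcl13, Ccl12, Ccl7, Ccl8 and Ccl2. They also included the enzymes Cbr2, Hpgds and Agmo, the complement component C4b, the copper oxidase Cp, the growth factor Pdgfc, Gas6 and Psd3, an exchange factor for ARF GTPases.

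Monocyte-attracting chemokines were among the largest of these differences, as a description of the members. Ccl7 stood at 1157 CPM in WT members and 624 CPM in mutant members, against 6.99 and 10.9 CPM in the Mmp12-high macrophages. Ccl12 stood at 437 and 152 CPM, against 0.61 and 2.09 CPM. Psd3 stood at 776 and 503 CPM, against 6.26 and 23.8 CPM. Ccl12 was found in 16 of 32 WT and 26 of 45 mutant members and Psd3 in 27 and 40, whereas Cxcl13 rested on 3 droplets in each library. In the Mmp12-high macrophages Ccl12 had 5 WT and 13 mutant UMIs, and Cxcl13 1 and 0. Both genes reached the minimum of UMIs through the members, so their ranks are no support for a direction.

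At the other end stood Mmp12 itself, which the rule limits, and the 9 next lowest genes: Dcstamp, which macrophages use to fuse, the chemokines Cxcl3 and Cxcl14, the ligand Tnfsf15, the arginine transporter Slc7a2, the class I-like gene H2-M2, the receptor Epha4, Tmeff1 and the non-coding 8430430B14Rik. Slc7a2 stood at 27.2 CPM in WT members and 43.8 CPM in mutant members, against 1031 and 1702 CPM in the Mmp12-high macrophages. Dcstamp stood at 3.63 and 13.6 CPM against 578 and 476 CPM.

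Against the Folr2-zero macrophages, which carry C1q and Csf1r alike, fewer genes stood apart. Of 8370 genes, 169 (2.02%) were at least 2-fold higher and 161 (1.92%) at least 2-fold lower in the members in both libraries. Among the resident identity genes, 19 of 21 stood higher and 1, again Clec4n, lower. Folr2 is 1 of the 19 by the rule, since the comparison group held 0 Folr2 UMIs. Genes such as Lyve1, Cd163, Vsig4, Clec10a and Cbr2 reached the minimum of 100 UMIs through the members, so this count is no support for a direction either. Stard8, an activator of the RhoA GTPase, was at 194 and 94.7 CPM in the members against 15.0 and 20.8 CPM, and Hpgd, which degrades prostaglandins, at 58.0 and 31.6 CPM against 4.21 and 8.20 CPM. Saa3, an acute-phase protein, stood lower in the members, at 47.2 CPM (WT) and 261 CPM (mutant) against 1489 and 1690 CPM.

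The members were not uniform, and Lyve1, the hyaluronan receptor, split them. At least 1 Lyve1 UMI was found in 13 of 32 WT members (23.7 to 59.4%) and 9 of 45 mutant members (9.58 to 34.6%). At 5000 UMIs a droplet the shares were 37.5% and 15.6%, against 0.60% and 0.51% of endothelial droplets. All of the Lyve1 droplets also held an Mrc1 UMI. Timd4, the phosphatidylserine receptor of long-lived resident macrophages, was found in 4 WT and 3 mutant members only.

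In both libraries, the droplets with Lyve1 held more Mrc1, Folr2, Gas6 and F13a1. F13a1, which encodes the A chain of coagulation factor XIII, stood at 3460 CPM in WT members with Lyve1 and 455 CPM in those without, and at 2596 and 470 CPM in the mutant. Cd163, the haemoglobin scavenger receptor, stood at 277 and 2.86 CPM in WT. In the mutant it stood at 129 and 17.5 CPM, but a single droplet with Lyve1 held 22 of the Cd163 UMIs, and the others with Lyve1 held 3 in all. Mrc1 stood at 2857 and 1461 CPM in WT and 1873 and 507 CPM in the mutant, and Gas6 at 346 and 135 CPM and at 299 and 54.2 CPM. Trem2, a lipid-sensing receptor, stood lower with Lyve1, at 183 against 407 CPM in WT and 191 against 347 CPM in the mutant. Cx3cr1, the fractalkine receptor, went in opposite ways, with 24.7 CPM in WT members with Lyve1 and 129 CPM without, and 320 and 130 CPM in the mutant. Cd74, the MHC class II invariant chain, stood at 3283 against 7298 CPM in WT and 5800 against 6662 CPM in the mutant.

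The label of a resident type was met only in part. Ccr2, carried by recruited monocytes, had a UMI in 12 of 32 WT and 20 of 45 mutant members, while Lyve1 and Ccr2 were found together in 1 and 2. Mrc1 was at 0 in 4 and 7 members. MHC class II transcripts were found in nearly all: the summed UMIs of Cd74, H2-Aa, H2-Ab1 and H2-Eb1 were under 10 in 3 WT and 4 mutant members. They are therefore called Folr2-positive macrophages here, and the rule does not separate long-lived from recently recruited cells.

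A smaller set of droplets held Spp1, the osteopontin gene, at 10 UMIs or more: 2 WT and 8 mutant members. The 8 mutant droplets had a median depth of 48772.5 UMIs. They held Apoe, the lipid carrier, at 15065 CPM, the lysosomal glycoprotein Gpnmb at 1139 CPM and Trem2 at 594 CPM, against 8495, 117 and 236 CPM in the other mutant members. In the same droplets Mrc1 stood at 260 CPM against 843 CPM and F13a1 at 114 CPM against 984 CPM. The 8 droplets were not alike, with Apoe under 5000 CPM in 3 of them. The 2 WT droplets did not show the higher levels: Apoe stood at 6469 CPM against 8130 CPM in the other WT members, Gpnmb had 0 UMIs against 95.1 CPM, and Trem2 stood at 322 against 325 CPM. Mmp12 stayed under 10 UMIs in them by the rule. At least 10 UMIs of the cell cycle genes Mki67 and Top2a were found in 2 WT and 6 mutant members, of the interferon-induced chemokine Cxcl9 in 0 and 7, and of the adhesion molecule Vcam1 in 1 and 8.

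RNA of other cell types was present in the members. The 6 neutrophil markers summed to 19000 CPM (WT) and 13053 CPM (mutant), with S100a9 the most abundant at 9555 and 6912 CPM and none at 0. Most of it lay in 5 droplets of each library with at least 100 UMIs of S100a8 and S100a9, whose median depths were 28933 and 56848 UMIs. Outside those droplets S100a9 stood at 209 and 118 CPM, and inside them at 31472 and 33716 CPM. In the S100 droplets Il1b, the interleukin-1 beta gene, stood at 1583 CPM (WT) and 2317 CPM (mutant), against 616 and 310 CPM in the rest. Mrc1 stood lower in them, at 843 against 2455 CPM in WT and 341 against 787 CPM in the mutant.

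The 6 erythroid markers summed to 297 CPM (WT) and 4562 CPM (mutant), with Hbb-bs the most abundant at 154 and 2068 CPM and none at 0. A single mutant droplet held 4913 of these UMIs. The 5 monocyte markers summed to 869 and 621 CPM, led by Plac8 at 375 CPM in WT and Ly6c2 at 232 CPM in the mutant, with none at 0. The 6 fibroblast markers summed to 105 and 164 CPM, led by Col1a1 at 32.6 CPM and Dcn at 50.9 CPM, with Pdgfra at 0 in WT. A single mutant droplet held 153 of the 228 mutant UMIs of these fibroblast markers. The 6 endothelial markers summed to 29.0 and 83.2 CPM, led by Flt1 at 12.7 and 35.2 CPM, with Cdh5 at 0 in WT. The 5 osteoclast markers summed to 47.2 and 164 CPM, led by Acp5 at 30.8 and 107 CPM, with Ocstamp at 0 in both libraries and Calcr at 0 in the mutant.

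Lymphoid and dendritic markers were sparse. The 5 B cell markers summed to 27.2 and 124 CPM, led by Ebf1 at 25.4 and 95.4 CPM, with Cd79b, Ms4a1 and Vpreb3 at 0 in WT. The 5 T cell markers summed to 18.1 and 26.5 CPM, led by Cd3d at 10.9 CPM in WT, with Cd3e and Trac at 0 in WT. A single droplet held all 10 WT UMIs of these T cell markers, and a single mutant droplet 34 of 37. The 6 dendritic cell markers summed to 5.44 and 32.3 CPM, led by Zbtb46 at 1.81 and 12.9 CPM, with Cd209a at 0 in both libraries and Xcr1 and Ccr7 at 0 in WT. Of the 5 Schwann cell markers, at 74.4 and 83.2 CPM, Mbp made up 74.4 and 77.5 CPM and Sox10 was at 0 in both libraries. The muscle, chondrocyte, smooth muscle and mast cell lists each summed to under 15 CPM. In all, 20 WT and 38 mutant members held at least 2 UMIs of another lineage's defining genes, and the part of free RNA or of cells caught together in these values was not tested.

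Under the rule, the difference in the share of the population between the libraries lay within counting error. The population made up 0.735% of kept WT barcodes (0.503 to 1.04%) and 0.782% of mutant barcodes (0.571 to 1.04%), a difference of 0.0464 percentage points (-0.313 to 0.385). Among droplets with C1q and Csf1r it made up 8.58% of 373 in WT (5.94 to 11.9%) and 10.7% of 419 in the mutant (7.94 to 14.1%). With every barcode thinned to 5000 UMIs the same rule found 19 WT and 15 mutant members, all of them among those above. The difference was then -0.181 percentage points (-0.630 to 0.248). In 2 other settings the interval left out 0, with the mutant share the higher: 0.472 percentage points (0.0196 to 0.910) with at least 1 Folr2 UMI in place of 2, and 0.631 (0.143 to 1.17) among barcodes with under 1% haemoglobin UMIs. The haemoglobin limit kept 4013 of 4352 WT barcodes but 3081 of 5757 mutant barcodes, with 32 and 44 members.

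Within the members, the resident identity genes stood lower in the mutant library. Over the members of both libraries 3554 genes had at least 100 UMIs, of which 108 (3.04%) stood at least 2-fold higher in the mutant and 53 (1.49%) at least 2-fold lower, with a median log2 ratio of 0.01. Among members of 10000 to 30000 UMIs fewer genes could be compared, and the counts were 57 and 49 of 1929. Of the 25 resident identity genes 20 could be compared, and 0 stood 2-fold higher and 10 lower, with 18 of 20 below 0 and a median log2 ratio of -0.95. The 10 were Mrc1, Gas6, Lyve1, Cd163, Vsig4, F13a1, Cbr2, Clec4n, Fxyd2 and Ltc4s. Vsig4, with 101 WT and 3 mutant UMIs, reached the minimum through the WT members alone, so its place among the 10 is no support for a direction. The list includes the 5 genes that define the population, and Folr2 was used by the rule.

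Mrc1 had 1088 UMIs in WT members and 971 in mutant members, a log2 ratio of -1.50 (-1.63 to -1.38). Gas6 gave -1.27 (-1.64 to -0.89), F13a1 -1.02 (-1.16 to -0.89) and Cbr2, a carbonyl reductase, -1.66 (-2.11 to -1.21). Ccl8 gave -0.62 (-0.73 to -0.51) and Pltp -0.66 (-0.82 to -0.49), neither past 2-fold. Selenop, the plasma selenium carrier, gave -0.89, while the scavenger receptor Stab1 and the growth factor Igf1 gave 0.02 and 0.20. Among the resident genes under 100 UMIs, Timd4 had 9 WT and 11 mutant UMIs, Cd209f 6 and 5, Fcna 13 and 41, Cd5l 1 and 17, and Cd209g none.

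The Mrc1, Gas6, F13a1 and Cbr2 ratios were smaller, and did not turn, in 3 narrower sets of members. The Mrc1 ratio was -0.94 among members of 10000 to 30000 UMIs (23 WT and 28 mutant), -1.21 among members with at least 200 CPM of Folr2 (22 and 23) and -0.77 among the 19 and 15 members found after thinning. The Gas6 ratio was -0.80, -0.73 and -0.46 in the same sets, and the Folr2 ratio, -0.78 over all members, was -0.31, -0.42 and -0.04. F13a1 gave -0.55, -0.61 and -0.29, and Lyve1 -0.57, -1.23 and -0.67. F13a1 and Gas6 were thus no longer past 2-fold in any of the 3 sets. Mrc1 and Lyve1 passed 2-fold only in the set with at least 200 CPM of Folr2. Of the resident identity list, 5, 7 and 4 genes were 2-fold lower in the 3 sets, against 10 over all members. Pltp changed little, at -0.66, -0.71 and -0.58. Ccl8 gave -0.08, -0.05 and -0.65, and turned to 0.18 among members under 30000 UMIs and under 100 UMIs of S100a8 and S100a9. When members picked at full depth were thinned to 3000 UMIs each, Mrc1 gave -1.55, Gas6 -1.58, F13a1 -1.08, Cbr2 -1.95 and Folr2 -1.13. That setting kept the same members and, apart from sampling, the CPM of each. It therefore cannot show how far the fixed Folr2 cut bears on the ratios. Over the 19 alternative settings that were tried, the median of the resident identity list lay between -1.08 and -0.54, with 4 to 11 genes 2-fold lower and 0 higher. Without the members that held 2 UMIs of another lineage, which left 12 WT and 7 mutant droplets, Lyve1 (0.14), Clec4n (0.20), Cd163 (0.052) and Folr2 (0.077) turned while Mrc1 gave -0.94.

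Over all C1q and Csf1r droplets, irrespective of Folr2, the median ratio of the resident genes did not lie below 0. This comparison was chosen after the values above were seen. Of 21 genes, Ccl8 and Fcna stood 2-fold higher and Vsig4 and Clec4n 2-fold lower, with 13 above 0 and a median log2 ratio of 0.26. Fcna (29 WT and 101 mutant UMIs) reached the minimum through the mutant droplets and Vsig4 (109 and 4) through the WT droplets, so neither is support for a direction. Mrc1 stood at 172 CPM in WT (373 droplets) and 185 CPM in the mutant (419 droplets), Ccl8 at 197 and 471 CPM, Folr2 at 26.6 and 35.7 CPM and Gas6 at 19.5 and 24.2 CPM. Lyve1 did stand lower, at -0.59 (-1.03 to -0.15). With Mmp12-rich droplets left out, the median was 0.03, with 11 genes above 0 and 10 below, and Mrc1 stood at 304 and 257 CPM. Those below 0 included Lyve1 at -0.87 (-1.32 to -0.43), Cd163 at -0.61 (-1.17 to -0.050), Cbr2 at -0.39 (-0.76 to -0.016) and Mrc1 at -0.24 (-0.34 to -0.14). In the Folr2-zero macrophages the mutant level was the higher for Mrc1 (log2 ratio 0.67), Gas6 (1.02), Pltp (0.65) and Ccl8 (2.03). The lower level of the list thus held for droplets picked by 2 Folr2 UMIs and not for the C1q and Csf1r droplets as a whole.

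Most genes of lipid handling gave ratios above 0. Of 19 compared, 5 were 2-fold higher in the mutant members and 0 lower, with 17 above 0 and a median log2 ratio of 0.52. Lpl, Fabp4, Gpnmb and Spp1, with 14, 9, 48 and 98 WT UMIs, reached the minimum of 100 UMIs through the mutant members, so that the count of higher genes is no support for a direction. Lpl, lipoprotein lipase, stood at 25.4 CPM (WT) and 273 CPM (mutant) (3.43, 2.66 to 4.31), in 7 of 32 and 26 of 45 droplets. Spp1 stood at 178 and 1156 CPM (2.70, 2.41 to 3.01), in 20 and 16 droplets, so that fewer mutant droplets held more of it. Gpnmb gave 2.10, and the fatty acid carriers Fabp4 and Fabp5 gave 2.49 and 1.64. Apoe, the most abundant, stood at 7990 and 10145 CPM (0.34, 0.30 to 0.39). The 5 higher genes are known from lipid-laden macrophages, and Spp1 and Fabp5 are also markers of the Mmp12-high class.

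Some of these lipid ratios turned with the choice of members. Without the Mmp12 limit, which added 2 WT and 3 mutant droplets, Lpl gave -0.40, Spp1 -0.43 and Gpnmb -0.57. Among the members found after thinning, Fabp5 gave -0.70 and Gpnmb -0.32. Over the 19 settings the median of the list lay between -0.12 and 0.78. The 5 markers of Mmp12-high macrophages summed to 646 CPM in WT members and 2397 CPM in mutant members, led by Fabp5 at 343 CPM in WT and Spp1 at 1156 CPM in the mutant, with none at 0. Their part in the lipid list was not tested.

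**Figure D4:**
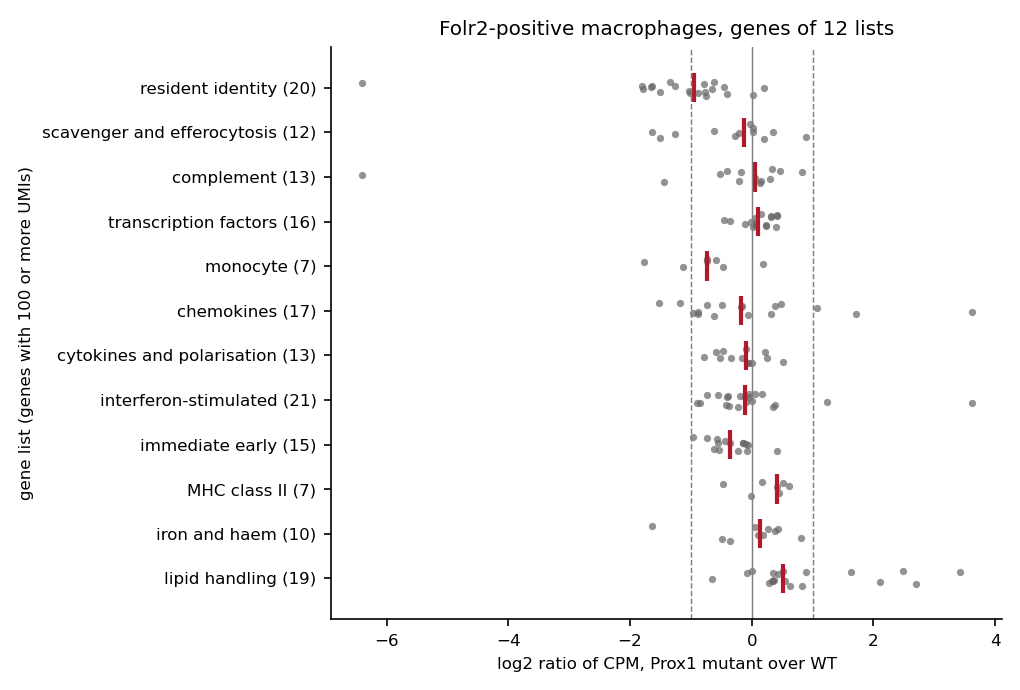
Log2 ratio, Prox1 mutant over WT members, of the genes of 12 lists, 1 point a gene with at least 100 UMIs, with a red bar at each list's median and dashed lines at 2-fold. The resident identity genes have a median of -0.95 and the lipid handling genes of 0.52, while the transcription factors lie near 0.

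MHC class II genes, which present peptides to T cells, differed by less than 2-fold. Of 7 compared, 0 passed 2-fold, with a median log2 ratio of 0.41, and H2-Ab1 stood at 1804 CPM (WT) and 2568 CPM (mutant) (0.51, 0.41 to 0.61). Ciita, their master regulator, gave 0.62 (-0.01 to 1.30), and H2-DMb1, which loads peptides, -0.48. Over the 19 settings the median lay between -0.41 and 0.87. The transcription factors of macrophage identity gave a median of 0.11 over 16 genes, with 0 past 2-fold either way: Maf gave 0.41 and Spi1, which encodes PU.1, 0.23.

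Chemokines were divided. Of 17 compared, 3 were 2-fold higher in the mutant members and 2 lower, with a median of -0.17. Over the 19 alternative settings the median lay between -0.65 and -0.024, with 1 to 3 genes 2-fold higher and 1 to 7 lower. Cxcl9 (9 WT and 278 mutant UMIs) and Cxcl13 (26 and 138) reached the minimum of 100 UMIs through the mutant members, so that the count of higher genes is no support for a direction. Cxcl9 stood at 16.3 CPM (WT) and 199 CPM (mutant) (3.61, 2.67 to 4.76), in 4 of 32 and 19 of 45 droplets. Ccl5 gave 1.71, and Cxcl13 gave 1.07 but -0.65 without its richest droplet, which held 118 of 138 mutant UMIs. Ccl12 gave -1.52 and Pf4, platelet factor 4, -1.17. Cxcl2, a neutrophil attractant and the most abundant of the list, stood at 2419 and 1726 CPM.

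Interferon-stimulated genes did not share the direction of Cxcl9. Of 21 compared, Cxcl9 and Rsad2 (1.23) stood 2-fold higher and 0 lower, with 15 of 21 below 0 and a median of -0.11. The median ran from -0.47 to 0.040 over the 19 alternative settings, with 1 to 3 genes 2-fold higher and 0 to 4 lower. Ifi27l2a gave -0.90 and Ifi207 -0.85. Of 13 cytokine and polarisation genes 0 passed 2-fold either way, with Il1b at 905 and 716 CPM (-0.34) and Tnf at 123 and 123 CPM (0.00). Over the 19 alternative settings the median of that list lay between -0.96 and 0.11, with 0 to 5 genes 2-fold lower and 0 to 2 higher. All but 1 of 15 immediate early genes lay below 0, with 0 past 2-fold and a median of -0.36: Egr1 gave -0.96 and Junb -0.57. Their median ran from -0.50 to -0.14 over the 19 settings, with 0 to 5 genes 2-fold lower and 0 to 1 higher.

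Of 7 monocyte genes compared, 2 were 2-fold lower, the matrix protein Fn1 at 742 and 218 CPM (-1.77) and haptoglobin Hp (-1.12), and 0 higher, with a median of -0.73. Ccr2 gave -0.46 and Ly6c2 0.19. Over the 19 alternative settings the median lay between -1.37 and -0.33, with 0 to 6 genes 2-fold lower and 0 to 1 higher, and Fn1 between -3.51 and -0.022. Fn1 was also the only gene of 8 in the matrix list with enough UMIs. Of 13 complement genes 0 stood 2-fold higher, with a median of 0.05, while Vsig4 stood lower and C3 gave 0.82. Of 12 scavenger and efferocytosis genes, Mrc1, Gas6 and Cd163 stood lower and 0 higher, with the Gas6 receptors Mertk at -0.61 and Axl at 0.02.

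The other lists gave few genes past 2-fold. Of 10 iron and haem genes Cd163 stood lower, with a median of 0.14, Blvrb at 0.81 and Hmox1 at -0.36. Of 8 vessel growth genes Lyve1 stood lower, with a median of -0.03 and Vegfa at 0.29, while Vegfc and Vegfd, the lymphatic growth factors, had 1 WT and 5 mutant, and 1 and 0 UMIs. Of 5 synovial lining genes Vsig4 stood lower, with a median of 0.01, Cx3cr1 at 0.79 and Trem2 at 0.01. Of 8 cell cycle genes 0 passed 2-fold, with a median of -0.17 and Mki67 at 0.87. The cell cycle list had no stable direction: over the 19 alternative settings its median lay between -2.30 and 2.77, with 0 to 8 genes 2-fold higher and 0 to 7 lower.

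Among all genes, the highest ratio belonged to Ifi202b, an interferon-inducible gene at chr1:173962568-173982744 on mm10, the chromosome that also carries Prox1 (chr1:190118035-190170714). Ifi202b had 1 UMI over the WT members and 382 over the mutant members, in 43 of 45 droplets, a log2 ratio of 7.24. Other macrophages were split alike: 0 against 184 CPM in the Folr2-zero and 0 against 153 CPM in the Mmp12-high droplets. Rpl29, a ribosomal protein gene, was the reverse, at 421 and 11.5 CPM in the members (-5.20, -6.03 to -4.47), with -5.54 in the Folr2-zero and -5.33 in the Mmp12-high macrophages. Both differences were thus shared by macrophages outside the population. Ifi202b, Rpl29 and the paired globin genes below have near copies in the genome, so their counts are uncertain as far as reads could be split between copies.

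All 10 highest genes had under 100 WT UMIs and reached the minimum through the mutant members, so the ranking is a description. Of the other 9, 5 belong to red cells or their precursors: the globins Hba-a2 (4.77), Hbb-bt (4.14), Hba-a1 (3.79) and Hbb-bs (3.75), and the carbonic anhydrase Car2 (4.25). One droplet carried 2173 of 2882 Hbb-bs UMIs, and without it Hbb-bs gave 1.94. The globins were also higher in the mutant Folr2-zero macrophages, where Hbb-bs stood at 2143 and 7907 CPM. Slc25a21, a mitochondrial carrier (6.22), and Sned1 (4.89), an extracellular matrix protein, had most of their UMIs in 1 droplet, 154 of 188 and 147 of 150, and gave 2.23 and 0.12 without it. Sox6, an erythroid and cartilage transcription factor, had 0 UMIs in WT and 144 in 7 mutant droplets, a log2 ratio of at least 4.25 when WT is set to 3 UMIs. Ctse, the protease cathepsin E, had 3 and 146 UMIs, the latter in 18 droplets (4.27).

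Fkbp5 and Tsc22d3 were among the lowest genes. Fkbp5, with 127 WT and 48 mutant UMIs, reached the minimum of 100 UMIs through the WT members alone, so its rank is a description. Fkbp5, a co-chaperone of the glucocorticoid receptor, stood at 230 CPM (WT) and 34.4 CPM (mutant) (-2.74, -3.25 to -2.25), and Tsc22d3, also called GILZ, at 308 and 82.5 CPM (-1.90, -2.26 to -1.55). Fkbp5 was found in 27 of 32 WT and 19 of 45 mutant members, and Tsc22d3 in 31 and 41. Their ratios were smaller in the other macrophages, at -1.01 and -0.37 for Fkbp5 and -0.54 and -0.90 for Tsc22d3 in the Folr2-zero and Mmp12-high droplets. Among members between 10000 and 30000 UMIs, Fkbp5 gave -2.06.

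Vsig4 was the lowest of all, with 101 UMIs in 6 WT droplets and 3 UMIs in 2 mutant droplets (-6.41, -8.71 to -4.82), and 38 of the WT UMIs lay in 1 droplet. It reached the minimum of 100 UMIs through the WT members alone, as did Rpl29 (232 WT and 16 mutant UMIs) and Tns1 (100 and 71). These ranks are therefore a description. Lyve1 (-1.80), Fxyd2 (-1.78) and the actin-linked Tns1 (-1.83) were also among the 10 lowest, with Lyve1 in 13 WT and 9 mutant droplets. Lyz1 (-1.86) and Slpi (-1.91), a lysozyme and a protease inhibitor of myeloid and epithelial secretions, were found in few droplets, Slpi in 10 and 16. Inhba, the activin A subunit, had 88 WT and 30 mutant UMIs (-2.89), of which 45 lay in 1 WT droplet.

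**Figure D5:**
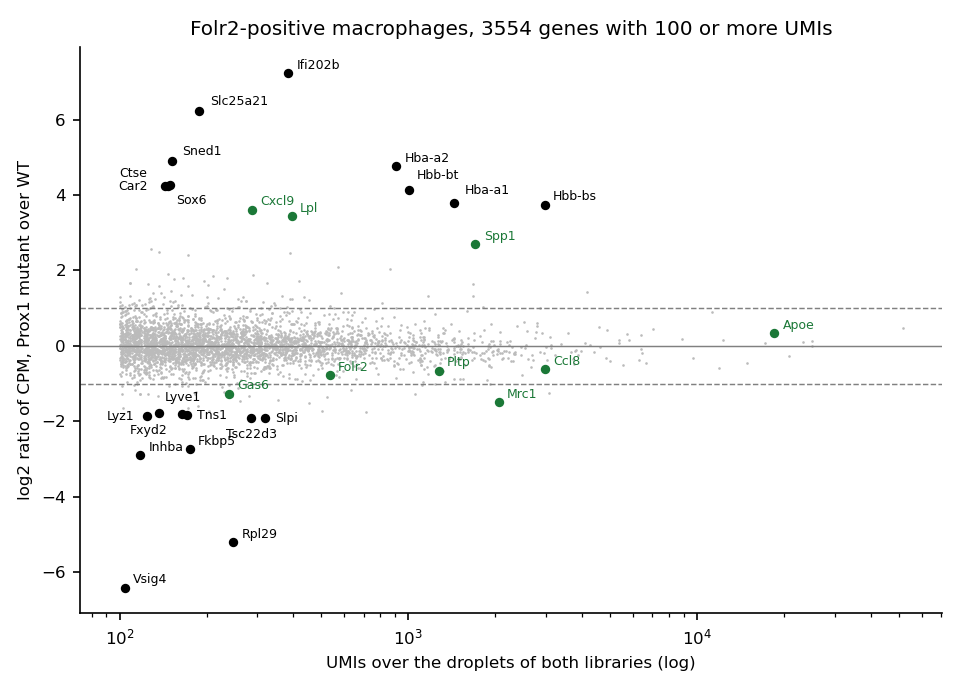
Log2 ratio, Prox1 mutant over WT members, against the UMIs of both libraries' members together (log axis) for 3554 genes, with dashed lines at 2-fold, the 10 highest and 10 lowest genes in black and marker genes in green. Ifi202b lies at 7.24, Rpl29 at -5.20, Mrc1 at -1.50 and Lpl at 3.43, and most genes lie within the dashed lines.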

How the data were processed

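TMJs of 1 WT and 1 Prox1 mutant library, both after CFA, were profiled on the 10x Genomics platform. The authors deposited UMI counts per gene and barcode, made with Cell Ranger 7.0.1 on mm10 (GRCm38), for 32285 genes in 5709 and 7846 barcodes. Whether introns were counted or doublets removed is not given in the sources used here. The labels name the 3′ v2 protocol with collagenase type I, whereas the study's methods name the v3.1 kit with Collagenase P.

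Counts were summed over members and divided by their total UMIs (CPM). Ratios were taken for genes with at least 100 UMIs over both libraries, and 2-fold counted as a difference. A gene with 0 UMIs was set to 3. Intervals were exact Poisson (levels), Clopper-Pearson (shares), Newcombe (difference of shares) and conditional binomial (ratios). They were tested only on counts drawn from Poisson and binomial models, as the intervals assume. That test does not bear on the spread between droplets. Genes were named if they were markers or rule genes, among the 10 highest or lowest ratios between genotypes, among the 20 highest or 10 lowest ratios over Mmp12-high macrophages, or in a list. A few genes of the lists are not reported here. Stard8, Hpgd and Saa3 were named after their values were seen. The members and lists were chosen with earlier results of these data known, and 6 settings were added after the values were seen. Scrublet, run in scanpy, called 1 and 0 doublets and was taken as not having worked, so the 239 and 462 highest scores served as an alternative. Python 3.11.15, scanpy 1.11.5, scipy 1.17.1, numpy 2.4.6, pandas 2.3.3 and matplotlib 3.10.9 were used.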

Additional observations from a re-analysis of the deposited data

How the results depend on the processing

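With 1 library per genotype, no alternative bears on the spread between mice. No paired analysis was possible because each group had 1 library. The difference in share, 0.0464 percentage points, was 0.472 (0.0196 to 0.910) with at least 1 Folr2 UMI, 2.16 (-2.04 to 6.29) as a share of C1q and Csf1r droplets and 0.631 (0.143 to 1.17) among barcodes with under 1% haemoglobin UMIs, so that 2 of the 3 intervals left out 0. With the haemoglobin limit 4013 of 4352 WT barcodes and 3081 of 5757 mutant barcodes were left. The other settings moved the difference by less than its interval. The number of genes compared also changed with the setting, so each count is given with it. Over all members 108 of 3554 genes stood at least 2-fold higher in the mutant. Without members holding 2 UMIs of another lineage (12 WT and 7 mutant left) the count was 24 of 496. It was 54 of 1190 among the members found after thinning and 57 of 1929 between 10000 and 30000 UMIs. Under 30000 UMIs and 100 UMIs of S100a8 and S100a9 it was 53 of 1908, and with at least 200 CPM of Folr2 70 of 1714. With members thinned to 3000 UMIs it was 342 of 3554. It was 231 of 5597 with at least 50 UMIs a gene, 51 of 1913 with at least 200, and 334 of 3554 at 1.5-fold. The 53 of 3554 lower genes became 32 of 496 without the mixed members and 259 of 3554 with members thinned to 3000 UMIs. They became 111 of 5597 with at least 50 UMIs, 27 of 1913 with at least 200 and 214 of 3554 at 1.5-fold. The members found after thinning shared 13 of the 108 higher and 15 of the 53 lower genes, those of 10000 to 30000 UMIs 28 and 19, and those without 2 UMIs of another lineage 4 and 1. Genes that fell below the minimum of UMIs in a set could not be shared. The cause of these changes was not tested.

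Of the log2 ratios of named genes, 2710 values moved by less than their interval, 1007 by more, and 18 turned among genes past 2-fold. Smaller ratios also changed sign and are not among the 18: Folr2 reached 0.077, Ccl8 0.18, Ccl7 0.54 from -0.89, and Cd36 -0.70 from 0.89. Without members holding 2 UMIs of another lineage Lyve1 gave 0.14, Cd163 0.052, Clec4n 0.20, Pf4 0.29, Ccl5 -0.16, Fabp5 -1.09, Gpnmb -0.34 and Vcam1 -0.45. Among the members found after thinning Fabp5 gave -0.70, Gpnmb -0.32, Pf4 0.063 and Retnlg 1.36. Without the Mmp12 limit Gpnmb gave -0.57, Lpl -0.40 and Spp1 -0.43. Cxcl13 gave -0.073 with at least 200 CPM of Folr2 and -0.65 without its richest droplet, and Retnlg gave 0.066 with at least 1 Folr2 UMI.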
